A study of Homo sapiens with 6 samples.

Results

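The genes described here encode the subunits of the oxidative phosphorylation (OXPHOS) complexes. They were taken by symbol from the 33496 genes of the deposited files, as the mitochondrially encoded ND, CO, ATP and CYB genes and the nuclear NDUF, SDH, UQCR, CYC1, COX and ATP5 genes, without 17 pseudogenes. This gave 94 genes, 13 encoded by the mitochondrial and 81 by the nuclear genome. Expression was measured by RNA-seq in 6 libraries of ARPE-19, an established human retinal pigment epithelium (RPE) cell line of wild-type genotype. All 6 cultures were treated for 24 h with 5 μM erastin, an inhibitor of cystine uptake that triggers ferroptosis, an iron-dependent cell death with lipid peroxidation. Of these, 3 received erastin alone (Era) and 3 received vitamin K1 (VK1, 10 μM) for 1 h before erastin (Era+VK). Libraries without erastin were not analysed here, so each value compares erastin after VK1 with erastin alone. The study describes independent experiments for the set of panels that includes the RNA-seq, but the labels do not tie the libraries to separate cultures, so the p-values measure the spread between these libraries.

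The values are FPKM, fragment numbers relative to transcript length and to all mapped fragments of a library, and they carry no counts, so the depth of the libraries is unknown. Between 24143 and 24601 genes per library were above 0. Of the 13 RPE markers in the files, 6 or 7 per library reached 1 FPKM, and their sum of 444 to 540.1 FPKM came mostly from the epithelial keratins KRT8 and KRT18. The transcription factors MITF and OTX2 were expressed in each library, BEST1 ran from 0.60 to 56.98 FPKM, and TYR, TYRP1, RLBP1, SERPINF1, LRAT and RPE65, the retinoid isomerase of mature RPE, stayed below 1 FPKM. The 16 erythroid markers, among them the globins, summed to 240.6 and 233.3 FPKM in Era+VK replicates 2 and 3. They stayed between 0.31 and 0.63 FPKM in each remaining library. The main values are also given without Era+VK replicates 2 and 3, which leaves Era+VK replicate 1 alone in its group.

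OXPHOS couples the oxidation of NADH and succinate to ATP synthesis in the inner mitochondrial membrane. Complexes I and II pass electrons to ubiquinone, complex III passes them on to cytochrome c, complex IV reduces oxygen with them, and ATP synthase, or complex V, uses the resulting proton gradient. Complexes I, III, IV and V are built from subunits of both genomes, complex II from nuclear subunits alone, and RPE cells rely on mitochondrial ATP for the support of photoreceptors. Vitamin K quinones are themselves lipid-soluble electron carriers.

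Transcript levels per length separated the mitochondrially encoded from the nuclear genes in each complex that holds both. Over all 6 libraries, the mean level of the mitochondrially encoded genes ran from 283 FPKM for MT-ND3 to 5928 FPKM for MT-CO1, with a median of 2293 FPKM. The 77 nuclear genes whose mean reached 1 FPKM ran from 1.67 FPKM for NDUFA3 to 232 FPKM for ATP5F1B, with a median of 16.0 FPKM. ATP5F1B encodes the catalytic beta subunit of ATP synthase, and it was followed by COX8A of complex IV at 104.5 FPKM and NDUFS5 of complex I at 100.4 FPKM. The median of nuclear complex I genes was 9.77 FPKM, below those of complex II (21.4 FPKM), III (21.8 FPKM), IV (26.6 FPKM) and V (18.2 FPKM). These levels depend on the transcript length used for scaling, which is short for many subunits.

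**Figure D1:**
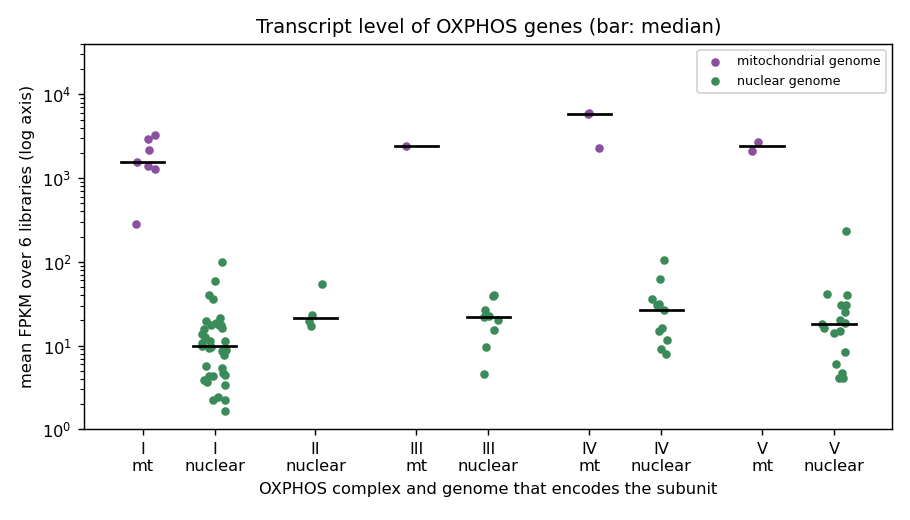
Mean FPKM over the 6 libraries (log axis) of each of the 90 genes tested, by complex and by the genome that encodes the subunit, with a bar at each median. The mitochondrially encoded genes lie between 283 and 5928 FPKM, the nuclear ones between 1.67 and 232 FPKM.

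The comparison of Era+VK with Era asked whether VK1 pretreatment moves OXPHOS transcripts in erastin-treated cells. The mitochondrially encoded genes had lower means in Era+VK in 13 of 13 cases, with log2 fold changes from -0.27 to -0.06, and 57 of the 77 nuclear genes tested had higher means, with a median log2 fold change of 0.06. Differences were small in both sets, and none of the 90 genes reached a log2 fold change of 0.3 in size. In limma on log2(FPKM + 1), 0 of these 90 genes were called at an adjusted p under 0.05, against 0.618% of the 11981 genes tested (0.134% higher and 0.484% lower). The lowest adjusted p in limma was 0.165, for MT-ATP8. At an unadjusted p under 0.05 there were 9 genes, 10% of the 90, against 15.8% of all genes tested (10.4% higher and 5.42% lower). These were MT-ATP8, MT-ATP6, MT-ND1, MT-ND4L and MT-ND3 among the lower means and SDHB, COX5B, NDUFS7 and SDHA among the higher ones. The groups did not overlap for 8 of the 90 genes, 4 mitochondrially encoded with Era+VK lower and 4 nuclear with Era+VK higher. Of all genes tested, 7.04% did not overlap with Era+VK lower and 15.1% with Era+VK higher. The 95% interval of the log2 fold change lay within 0.5 in either direction for 89 of the 90 genes, and its farthest bound was 0.54, for NDUFS6. The median over all genes tested was 0.03, with 63.3% above 0 and 36.7% below 0.

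**Figure D2:**
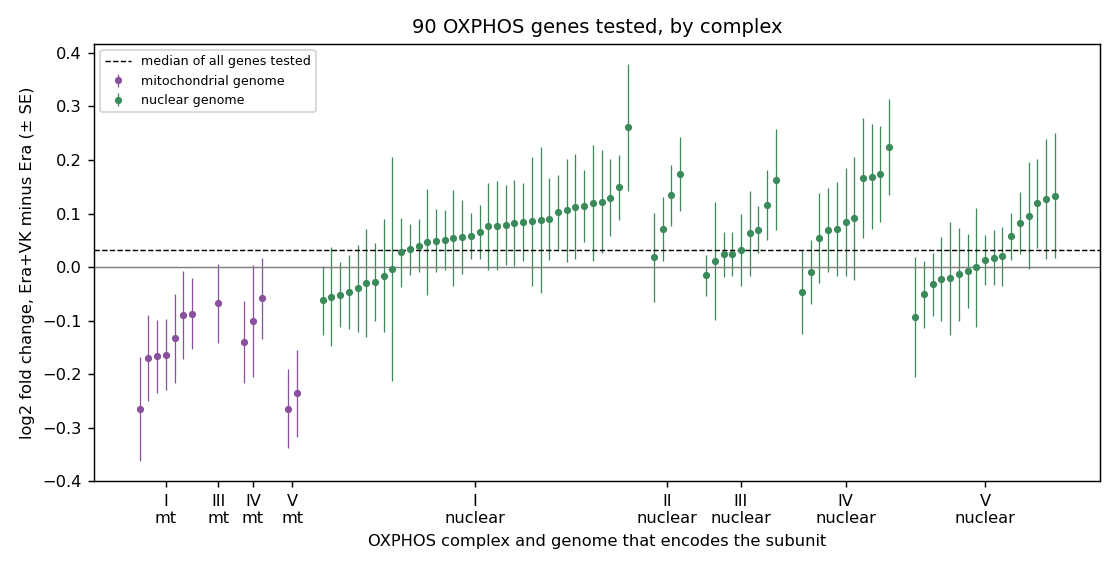
Log2 fold change of Era+VK against Era with its standard error for the 90 genes tested, ordered within each complex and coloured by the genome that encodes the subunit. The 13 mitochondrially encoded genes lie below 0, and the nuclear genes lie on both sides of the dashed median of all genes tested (0.03).

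The mitochondrial protein genes are read from long polycistronic transcripts that are cut at the tRNAs between them. The overlapping pairs MT-ATP8 and MT-ATP6, and MT-ND4L and MT-ND4, are each translated from 1 shared mRNA. These 2 pairs include 3 of the 4 mitochondrially encoded genes whose libraries did not overlap between groups. All 4 were lower in Era+VK, a direction in which 7.04% of all genes tested did not overlap. The junctions of both pairs are shown because a fragment that covers the shared bases overlaps both genes. MT-ATP6 and MT-CO3 also share 1 base (chrM:9207), which is not shown. The average insert size given by the study is longer than MT-ATP8 (207 bases) and MT-ND4L (297 bases), so fragments can also run past these genes. How such fragments were counted is not given in the sources used here. The sequences are from GENCODE 29 transcripts on GRCh38, plus strand, with the bases shared by both genes in capitals. MT-ATP8 and MT-ATP6 share 46 bases at chrM:8527-8572, printed with 30 bases on either side (chrM:8497-8602), and MT-ND4L and MT-ND4 share 7 bases at chrM:10760-10766 (printed chrM:10730-10796).
MT-ATP8/MT-ATP6: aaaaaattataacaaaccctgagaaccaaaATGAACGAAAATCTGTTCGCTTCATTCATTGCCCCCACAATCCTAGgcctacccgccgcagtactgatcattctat
MT-ND4L/MT-ND4: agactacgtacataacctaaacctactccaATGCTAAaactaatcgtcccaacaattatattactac

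Both mitochondrially encoded subunits of ATP synthase had lower levels in every Era+VK library than in any Era library. MT-ATP8 (ENSG00000228253, chrM:8366-8572), a small subunit of the membrane part, was at 2736, 3016 and 3168 FPKM in Era replicates 1 to 3 and at 2401, 2572 and 2441 FPKM in Era+VK. Its mean of 2974 ± 219 FPKM in Era stood against 2471 ± 89.5 FPKM in Era+VK (mean ± SD, n = 3), with a log2 fold change of -0.26 and an SE of 0.07 (adjusted p = 0.165 in limma). The groups do not overlap, as for 7.04% of all genes tested in this direction. MT-ATP6 (ENSG00000198899, chrM:8527-9207), the subunit that forms the proton channel with the c ring, was at 2044, 2281 and 2508 FPKM in Era and at 1952, 1947 and 1885 FPKM in Era+VK. Again the groups do not overlap, with Era replicate 1 closest to the Era+VK libraries. Its log2 fold change was -0.24 (SE 0.08, adjusted p = 0.231 in limma). Because of the shared mRNA, these are not 2 independent measurements.

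The 7 mitochondrially encoded subunits of complex I form most of the proton-pumping membrane arm, and their median log2 fold change was -0.16. MT-ND1 (ENSG00000198888, chrM:3307-4262), which lines the ubiquinone site, was at 1449.7, 1719.8 and 1911 FPKM in Era and at 1418, 1396 and 1386 FPKM in Era+VK. The groups do not overlap, but Era replicate 1 lies closer to the Era+VK libraries than to the other Era libraries, and the Era+VK libraries lie close together (SD 16.3 FPKM against 232 FPKM in Era). Its log2 fold change was -0.27 (SE 0.10, adjusted p = 0.256 in limma). MT-ND4L (ENSG00000212907, chrM:10470-10766) was at 3233, 3602 and 3525 FPKM in Era and at 3075, 3113 and 3049 FPKM in Era+VK, again without overlap (log2 fold change -0.16, SE 0.07, adjusted p = 0.294 in limma). MT-ND3 was at 293, 296 and 308 FPKM in Era and at 252, 295 and 254 FPKM in Era+VK, where replicate 2 reached the Era libraries (log2 fold change -0.17). The other 4 overlapped between groups. MT-ND4, a pump subunit next to MT-ND4L, had a log2 fold change of -0.17, MT-ND2 one of -0.13, and MT-ND5 and MT-ND6 one of -0.09 each. MT-ND6 is the only protein gene on the light strand, and its adjusted p was 0.642 in limma.

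The mitochondrially encoded genes of complexes III and IV had log2 fold changes from -0.14 to -0.06, and all 4 overlapped between groups. MT-CYB, the cytochrome b of complex III, was at 2308, 2478 and 2698 FPKM in Era and at 2450.6, 2306 and 2371 FPKM in Era+VK, so Era replicates 2 and 3 were above all Era+VK libraries and Era replicate 1 was among them (log2 fold change -0.07, SE 0.07). MT-CO1, the catalytic subunit of complex IV, was at 5670.1, 6231 and 6244 FPKM in Era and at 5795, 6065 and 5561 FPKM in Era+VK (log2 fold change -0.06, SE 0.08). It was the most abundant of all 94 genes and had the smallest difference of the 13. MT-CO2, which takes electrons from cytochrome c, was lowest in Era replicate 1 at 5095 FPKM and highest in Era replicate 3 at 6653 FPKM, with the Era+VK libraries between them (log2 fold change -0.10, SE 0.11). MT-CO3, a core subunit without redox centres, had a log2 fold change of -0.14 (SE 0.08), with Era replicate 1 at 2279 FPKM below Era+VK replicate 2 at 2350.5 FPKM.

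**Figure D3:**
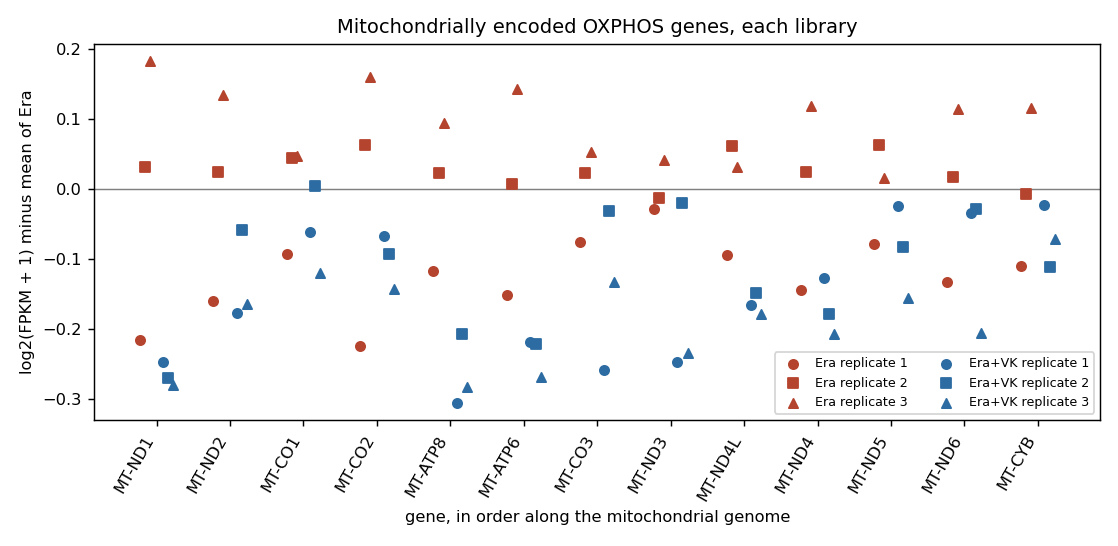
Level of each mitochondrially encoded OXPHOS gene in each library, as log2(FPKM + 1) minus the mean of the 3 Era libraries, in the order of the genes along the mitochondrial genome. Era replicate 3 is highest for 11 of the 13 genes, and Era replicate 1 lies below 0 for all 13.

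The 13 genes varied together from library to library. On the log2 scale and relative to the mean of Era, their median was -0.12, 0.02 and 0.11 in Era replicates 1 to 3 and -0.17, -0.09 and -0.18 in Era+VK replicates 1 to 3. Era replicate 1 thus lies inside the range of Era+VK, and Era replicate 3 was highest for 11 of the 13 genes, as for 11.8% of all genes tested. The median log2 fold change of the 13 was -0.21 without Era replicate 1, -0.13 without Era replicate 2 and -0.11 without Era replicate 3. Without both Era+VK libraries that hold globin transcripts, which leaves Era+VK replicate 1 alone in its group, it was -0.17 with 13 of 13 genes lower. In Era replicate 1, too, 0 of the 13 genes were above the mean of Era. The share of a library's FPKM that these 13 genes held was 13.996%, 15.5% and 16.03% in Era and 14.3%, 13.9% and 13.8% in Era+VK, so Era replicate 1 lay within the range of Era+VK here too. The mean share was 15.2% ± 1.06 in Era against 14.02% ± 0.235 in Era+VK (mean ± SD, n = 3), and 3 libraries against 3 allow no exact permutation p below 0.1. After quantile normalization the median was -0.03 and 10 of 13 genes were lower, with MT-CO1, MT-ND5 and MT-ND6 on the other side of 0. This method gives every library the same set of values, so it can itself remove a shift that the most abundant genes share. The files also list 63 nuclear pseudogene copies of mitochondrial protein genes, of which 5 reached a mean of 1 FPKM. MTATP6P1, the highest at 317 FPKM, differed by -0.24 on the log2 scale (adjusted p = 0.200 in limma), and how reads were divided between it and MT-ATP6 is not given in the sources used here.

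The promoters of nuclear OXPHOS genes are known for sites of NRF1, of the ETS-family factor GABP and of YY1, which connect many OXPHOS genes to a common control. RefSeq promoters (GRCh38.p14, 250 bases before to 50 after the start) were found for 65 of the 81 nuclear genes. Either strand was searched for GCATGCGC (NRF1), CCGGAAGT (ETS) and AAGATGGC (YY1), none of which is contained in another. Of the 65 genes, 14 held the NRF1 string (21.5%, against 3.68% of all 27305 genes with a promoter), 12 the ETS string (18.5% against 4.95%) and 12 the YY1 string (18.5% against 3.52%). At least 1 of them was present for 31 genes (47.7% against 11.2%). A match is a description of the letters and not a bound site. Counted by promoter, the median log2 fold change was 0.05 with any string (33 promoters) and 0.06 without (42 promoters). It was 0.09 with the NRF1 string and 0.06 without, and 0.06 with and without the ETS string. With the YY1 string it was -0.02, and 0.07 without. These differences were not tested. Of the 4 nuclear genes with an unadjusted p under 0.05 in limma, SDHA had none of the strings in its promoter. The promoters of the 3 nuclear genes with the lowest p are shown, in the direction of transcription, with matching letters in capitals. They are SDHB (chr1:17053983-17054282, minus strand) with the NRF1 and YY1 strings, COX5B (chr2:97645812-97646111, plus strand) with the NRF1 string and the ETS string at 2 places, and NDUFS7 (chr19:1383657-1383956, plus strand) with the NRF1 and YY1 strings.
SDHB: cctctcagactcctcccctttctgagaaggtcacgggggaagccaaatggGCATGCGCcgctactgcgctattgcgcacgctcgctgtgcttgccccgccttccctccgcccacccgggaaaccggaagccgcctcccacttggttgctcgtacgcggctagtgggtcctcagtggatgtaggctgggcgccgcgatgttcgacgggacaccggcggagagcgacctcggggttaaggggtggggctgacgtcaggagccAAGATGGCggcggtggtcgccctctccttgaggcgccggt
COX5B: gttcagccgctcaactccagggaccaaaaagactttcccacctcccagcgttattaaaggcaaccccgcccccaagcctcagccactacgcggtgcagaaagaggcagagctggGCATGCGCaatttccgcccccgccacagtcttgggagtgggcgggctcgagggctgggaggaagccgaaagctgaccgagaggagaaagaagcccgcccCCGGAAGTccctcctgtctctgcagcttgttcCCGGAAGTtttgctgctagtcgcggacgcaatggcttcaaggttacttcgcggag
NDUFS7: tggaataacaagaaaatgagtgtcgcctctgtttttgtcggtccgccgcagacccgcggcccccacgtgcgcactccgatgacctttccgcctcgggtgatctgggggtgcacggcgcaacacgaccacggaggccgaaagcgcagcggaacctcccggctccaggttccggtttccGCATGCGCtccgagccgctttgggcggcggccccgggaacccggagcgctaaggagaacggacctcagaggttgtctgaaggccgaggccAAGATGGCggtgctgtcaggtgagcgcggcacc

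Nuclear complex I genes had higher means in Era+VK in 27 of 36 cases, with a median log2 fold change of 0.06. The 7 core genes, which carry the flavin, the iron-sulfur clusters and the NADH and ubiquinone sites, had a median of 0.06 with 5 higher, and the 29 accessory genes had a median of 0.08 with 22 higher. NDUFS7 (ENSG00000115286, chr19:1383527-1395589), which binds the last iron-sulfur cluster before ubiquinone, was at 4.22, 4.16 and 3.78 FPKM in Era and at 4.31, 4.76 and 4.74 FPKM in Era+VK. The groups do not overlap, as for 15.1% of all genes tested in this direction (log2 fold change 0.15, SE 0.06, adjusted p = 0.294 in limma). NDUFS1, the largest core subunit, named after its values were seen, also did not overlap, from 8.20 to 8.62 FPKM in Era and from 8.72 to 8.81 FPKM in Era+VK (log2 fold change 0.06). The largest difference was that of NDUFS6 (ENSG00000145494, chr5:1801400-1816605), an accessory zinc protein, at 15.4, 14.96 and 17.4 FPKM in Era and at 16.5, 23.4 and 18.4 FPKM in Era+VK. Era+VK replicate 2 alone was far above the rest, and the groups overlap (log2 fold change 0.26, SE 0.12, adjusted p = 0.338 in limma). NDUFV2, a core subunit of the NADH-oxidizing module, and NDUFA11, a membrane arm subunit, had the lowest log2 fold changes, -0.06 each. NDUFS5, the most abundant, ran from 91.9 to 106.6 FPKM in Era and from 86.4 to 122 FPKM in Era+VK.

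Complex II, or succinate dehydrogenase, also belongs to the tricarboxylic acid (TCA) cycle, and all 4 of its genes had higher means in Era+VK (median log2 fold change 0.10). SDHB (ENSG00000117118, chr1:17018722-17054170), the iron-sulfur subunit, was at 17.9, 17.2 and 19.7 FPKM in Era and at 19.0, 21.8 and 21.3 FPKM in Era+VK. Era replicate 3 lies above Era+VK replicate 1, so the groups overlap (log2 fold change 0.17, SE 0.07, adjusted p = 0.285 in limma). SDHA, the flavoprotein that oxidizes succinate, was at 16.7, 15.4 and 16.88 FPKM in Era and at 16.85, 18.6 and 18.5 FPKM in Era+VK, with Era replicate 3 just above Era+VK replicate 1 (log2 fold change 0.13, SE 0.06, adjusted p = 0.313 in limma). For both, Era+VK replicates 2 and 3, the libraries with globin transcripts, were above all Era libraries and replicate 1 was not. Without these libraries the log2 fold changes were 0.06 for SDHB and 0.05 for SDHA. The membrane anchors SDHC and SDHD had log2 fold changes of 0.07 and 0.02, and without both libraries they were at -0.02 and -0.09.

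Nuclear complex III genes had higher means in 8 of 9 cases, and their median of 0.03 was that of all genes tested. UQCR10 and UQCRQ, both small subunits, had the largest values, 0.16 and 0.12. UQCR11, a further small subunit named after its values were seen, was from 14.3 to 15.4 FPKM in Era and from 15.5 to 15.9 FPKM in Era+VK. Its groups do not overlap, as for 15.1% of all genes tested in this direction (log2 fold change 0.07, SE 0.04). UQCRC1, a core protein and the only gene of the 9 with a lower mean, was at 38.98 ± 0.473 FPKM in Era against 38.6 ± 0.610 FPKM in Era+VK (mean ± SD, n = 3). It had the smallest standard error named here, 0.04, and a 95% interval from -0.10 to 0.07. UQCRH, the hinge protein and the most abundant of these, had a log2 fold change of 0.01.

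Nuclear complex IV genes, counted with NDUFA4, had higher means in 9 of 11 cases, with a median of 0.08 on the log2 scale. COX5B (ENSG00000135940, chr2:97646040-97648383), a zinc-binding subunit on the matrix side, was at 14.75, 14.85 and 14.70 FPKM in Era and at 16.9, 20.3 and 15.3 FPKM in Era+VK. All Era+VK libraries were above the Era libraries, as for 15.1% of all genes tested. The Era libraries were nearly equal, while the Era+VK libraries spread widely (SD 2.55 FPKM against 0.0764 FPKM). Its log2 fold change was 0.22 (SE 0.09, adjusted p = 0.291 in limma), and 0.19 without both libraries that hold globin transcripts. COX6A1, the form of its subunit found outside muscle and heart, had a log2 fold change of 0.17 (SE 0.09), and its groups overlap. COX5A had one of -0.01 and NDUFA4, an outer subunit first assigned to complex I, one of -0.05. Of the 3 subunits with tissue forms followed here, the widely expressed gene had the higher level. COX6B1 had a mean of 26.6 FPKM, while its testis form COX6B2 was at 0.01 FPKM or less. COX7A2 had a mean of 15.05 FPKM, while its muscle form COX7A1 was between 0 and 0.40 FPKM. COX8A was at 101 ± 2.22 FPKM in Era against 108 ± 17.3 FPKM in Era+VK (mean ± SD, n = 3), while COX8C was listed at 0 in all 6 libraries. COX4I1, with a mean of 35.8 FPKM, and COX7B, with 7.95 FPKM, had log2 fold changes of 0.05 and 0.07. The genes under the minimum of 1 FPKM were COX6B2, COX7A1, COX8C and, in complex V, ATP5MGL, and they were not tested.

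Nuclear ATP synthase genes were evenly divided, with 9 of 17 higher and a median log2 fold change of 0.01. The 5 genes of the catalytic F1 head had values from -0.02 to 0.06. Among them ATP5F1B (ENSG00000110955, chr12:56638175-56646068) was at 231.3, 229.8 and 228 FPKM in Era and at 219.9, 249.8 and 230.2 FPKM in Era+VK, with Era+VK libraries on both sides of Era (log2 fold change 0.02, SE 0.06). The 4 genes of the peripheral stalk had a median of -0.02. The 3 genes ATP5MC1, ATP5MC2 and ATP5MC3 encode the same mature c subunit, and their log2 fold changes were -0.09, -0.05 and 0.12, with standard errors of 0.11, 0.06 and 0.08. ATP5MC2 was the most abundant of them at 24.98 FPKM, followed by ATP5MC3 at 19.98 FPKM and ATP5MC1 at 8.38 FPKM. ATP5ME and ATP5MF, small membrane subunits, had the largest values of the complex, 0.13 each. The mitochondrially encoded ATP synthase genes had a median of -0.25, outside the range of all 17 nuclear ones (-0.09 to 0.13). This difference between the genomes was not tested.

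The higher means of nuclear genes in Era+VK rested mostly on 1 library. Of the 77 genes, 69 (89.6%) were highest in Era+VK replicate 2, as were 25.2% of all genes tested. Relative to the mean of Era, their median was 0.20 in Era+VK replicate 2, with 76 of the 77 above 0, against -0.04 in replicate 1 and 0.00 in replicate 3. The Era libraries were at -0.00, -0.01 and 0.01. Without Era+VK replicate 2 the median log2 fold change was -0.00 with 37 of 77 higher, and without both libraries with globin transcripts it was -0.04 with 29 of 77 higher. By complex, 17 of 36 genes of complex I, 2 of 4 of complex II, 4 of 9 of complex III, 3 of 11 of complex IV and 3 of 17 of complex V were then higher. The median in Era+VK replicate 2 was 0.21 for complex I, 0.20 for complex II, 0.12 for complexes III and V and 0.33 for complex IV, and each gene of complexes II and IV was highest there. Complex II was also higher in Era+VK replicate 3, at 0.11 with 3 of 4 genes above 0, while the other complexes were between 0.00 and 0.03 in that library. Era+VK replicate 3, with about as much globin transcript, was at 0.00 over the 77 genes, and the part of erythroid transcripts in the values was not tested.

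**Figure D4:**
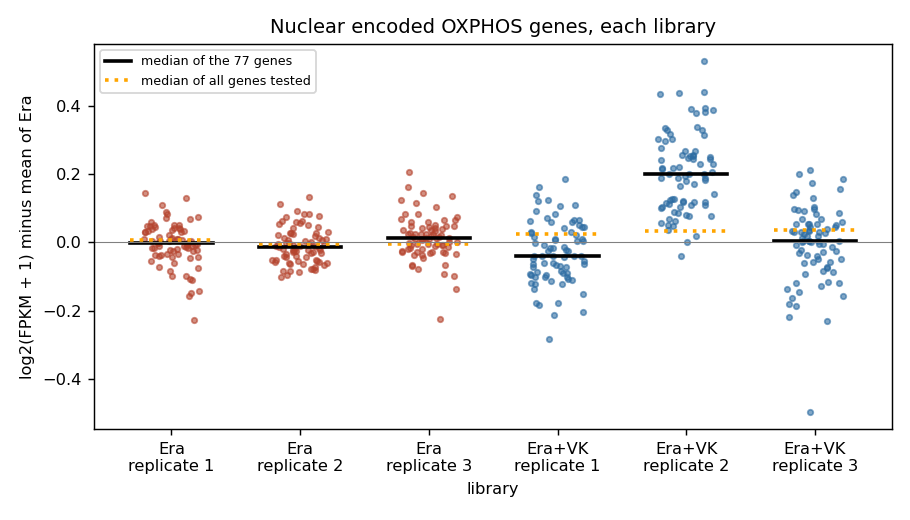
Each point is 1 of the 77 nuclear genes in 1 library, as log2(FPKM + 1) minus the mean of the 3 Era libraries, with black bars at the median of these genes and dotted bars at the median of all genes tested. In Era+VK replicate 2 the median of these genes is 0.20, while in the other 5 libraries it lies between -0.04 and 0.01.

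Genes with short annotated transcripts were in general higher in Era+VK replicate 2. The median length of the longest annotated transcript was 1439 bases for the 77 genes and 3502 bases for all genes tested. Among other genes, the median in Era+VK replicate 2 was 0.09 for transcripts under 1000 bases, 0.08 for 1000 to under 2000 bases, 0.05 for 2000 to under 4000 bases and 0.01 for 4000 bases and over. The nuclear OXPHOS genes were at 0.26, 0.20, 0.18 and 0.15 in the same classes, with 24, 25, 18 and 10 genes. They were thus above other genes of like length in each class, of which the last 2 hold under 20 genes. The part of transcript length in the pattern was not tested further than by removing the length and GC trend of each library, after which the log2 fold change of Era+VK against Era had a median of 0.03 over the 77 genes, with 49 higher, and of 0.00 over all genes. Before, these medians were 0.06 and 0.03.

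**Figure D5:**
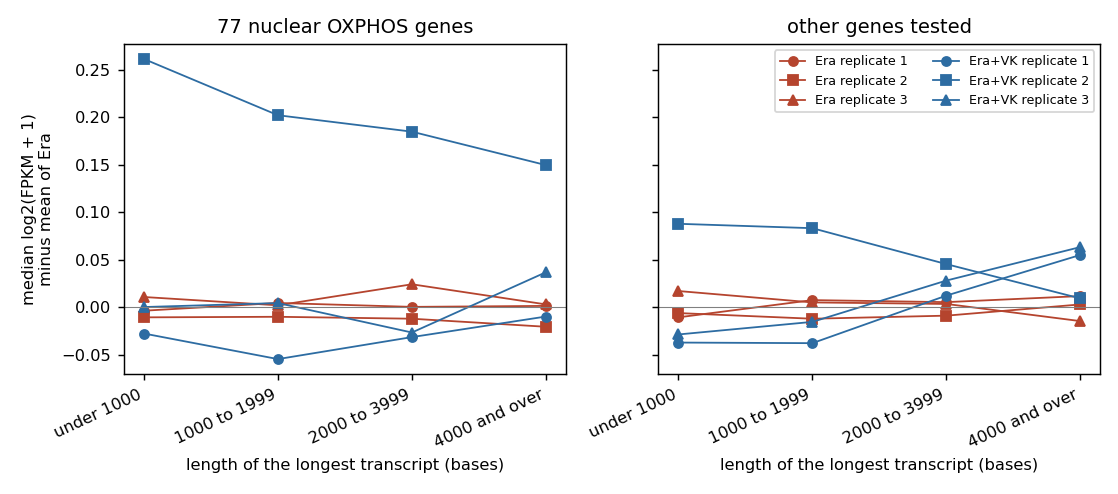
Median of log2(FPKM + 1) minus the mean of Era in 4 classes of the longest annotated transcript, for the 77 nuclear OXPHOS genes and for all other genes tested, 1 line per library. Era+VK replicate 2 lies at 0.15 to 0.26 for the OXPHOS genes and at 0.09 to 0.01 for other genes, lowest for the longest.

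Set against each other within a library, the summed FPKM of the mitochondrially encoded genes was 19.2, 21.6 and 22.2 times that of the nuclear genes in Era and 19.7, 16.8 and 18.7 times in Era+VK. Era replicate 1 lies within the range of Era+VK, so the groups overlap, and the lowest ratio is that of Era+VK replicate 2. Within complex I, the median of mitochondrially encoded genes over that of nuclear ones was 142, 169.5 and 198 in Era and 145.5, 126 and 147 in Era+VK. Within complex V it was 133, 152 and 160.0 in Era and 122, 118 and 136 in Era+VK. Era replicate 1 overlapped with Era+VK in both. Within complex III it was 113.6, 112.2 and 130.9 in Era and 109.6, 97.7 and 113.5 in Era+VK, with Era replicate 2 below Era+VK replicate 3. Within complex IV it was 197, 236 and 246 in Era and 239, 189 and 189 in Era+VK, with Era+VK replicate 1 above Era replicates 1 and 2.

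Other genes of the pathway were taken from lists chosen by function. Of the 144 genes tested on 11 lists, 0 had an adjusted p under 0.05 in limma, and 11 (7.64%) had an unadjusted p under 0.05, against 15.8% of all genes tested. Among 15 tested genes for further subunits and electron carriers, 7 had higher and 8 lower means (median log2 fold change -0.01). They include cytochrome c, CYCS, at -0.06, and PDSS1, which makes the tail of ubiquinone, at -0.26 (adjusted p = 0.238 in limma). Assembly factors were near the median of all genes, at -0.01 over 17 genes for complex I, 0.01 over 10 for complexes II and III, 0.04 over 24 for complex IV and 0.00 over 5 for ATP synthase. The 26 genes of mitochondrial transcription and RNA handling had a median of 0.03, with 0.04 for the polymerase POLRMT and 0.06 for the transcription factor TFAM, and the 11 genes of mitochondrial DNA maintenance one of 0.00. The share of genes highest in Era+VK replicate 2 was 23.1% in the list of transcription and RNA handling, against 66.7% among complex IV assembly factors and 76.5% among TCA cycle genes.

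TCA cycle and pyruvate dehydrogenase genes, which supply the NADH and succinate, had higher means in 14 of 17 cases, against 63.3% of all genes tested, with a median of 0.06. Of these, 5 did not overlap between groups, as for 15.1% of all genes in this direction. DLAT, the acetyltransferase of pyruvate dehydrogenase, had the lowest p of these (adjusted p = 0.197 in limma, log2 fold change 0.16). Of the 6 tested regulators of mitochondrial biogenesis, 5 were higher, with NRF1 at 2.34 FPKM in Era against 2.88 in Era+VK (log2 fold change 0.22, adjusted p = 0.224 in limma), while the coactivators PPARGC1A and PPARGC1B were below 1 FPKM. The lowest adjusted p of any list gene stood among the 11 chaperones and proteases, at 0.0718 in limma for the protease LONP1 (44.7 to 36.6 FPKM, log2 fold change -0.28) and 0.0751 in limma for the Hsp70 chaperone HSPA9 (35.6 to 30.003 FPKM, log2 fold change -0.24). Both passed after median-ratio scaling (adjusted p = 0.0421 and 0.0441 in limma) and once trends with GC content and length were removed (0.0274 and 0.0348), and HSPA9 also after quantile normalization (0.0452). Of the 16 alternatives, LONP1 thus passed in 2 and HSPA9 in 3, with adjusted p of up to 0.231 and 0.248 in limma under the others. Among mitochondrially encoded RNAs that are not translated, the ribosomal RNA MT-RNR2 was at 1946, 2028 and 2187 FPKM in Era and at 1840, 1849 and 1839 FPKM in Era+VK. The groups of MT-RNR2 do not overlap, as for 7.04% of all genes tested in this direction (log2 fold change -0.15, SE 0.06, adjusted p = 0.295 in limma). After quantile normalization, which can itself remove a shift shared by the most abundant genes, its log2 fold change was 0.00.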

How the data were processed

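RNA-seq was measured in 6 ARPE-19 libraries, 3 Era and 3 Era+VK, grouped by their labels. The authors deposited FPKM values with 2 decimals for 33496 genes. The submitters' processing notes name cutadapt, HISAT2 and StringTie 2.1.6, and a mouse build, mm10, although the gene identifiers are human. Annotation, strand setting and filters are not given in the sources used here. FPKM are relative to the library, so abundant genes move all others, and without counts no counting error is given. The library labels number the cell line upwards, and all were taken as ARPE-19 from their titles. Doses and times are from the study's methods.

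The test was limma 3.58.1 in R 4.3.3 (moderated, with an intensity trend), two-sided, on log2(FPKM + 1) of the 11981 genes whose mean reached 1 FPKM, with Benjamini-Hochberg adjustment over all of them and a threshold of 0.05. The added 1 FPKM shrinks the fold changes of low genes. GENCODE 29 (GRCh38) gave positions, lengths and GC content by gene identifier. The test was tested on simulated data for Era+VK against Era over 11981 genes, where it called 81 of 100 genes changed by a log2 of 0.5, 94 of 100 changed by 1 and 10 unchanged genes. The simulated noise was independent between genes, with SDs shuffled over genes, so it held no shift shared by the genes of a library. Changes under 0.5 were not simulated, so the simulation does not cover differences as small as those of the OXPHOS genes.

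The OXPHOS genes and lists were chosen with earlier results of these data known, so they received no set test. Named genes are the 13 mitochondrially encoded ones, the 2 largest differences in each direction and the most abundant nuclear gene of each complex, tissue forms, SDHA to SDHD, genes under the minimum and any gene past the threshold. Others, such as list genes with the lowest p, were named after their values were seen. Alternatives changed the pseudocount, filter, scaling, replicate block or libraries. Removing the GC and length trend was added after seeing the data. The NRF1 string was shortened to 8 bases after a form with 10 had been searched. COX4I2, COX6A2 and COX7B2 were not analysed here.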

Additional observations from a re-analysis of the deposited data

How the results depend on the processing

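Of the OXPHOS genes, 0 passed the threshold in limma under those of the 16 alternatives that kept more than 1 library in each group. Their lowest adjusted p in limma ran from 0.0589 (without Era+VK replicate 2) to 0.497 (no filter on low genes). Between 1 and 14 OXPHOS genes had an unadjusted p under 0.05 in limma, and the share of all genes at this cut is not given for the alternatives. In the main fit it was 15.8%, against 10% of the OXPHOS genes. Over all genes, against 74 calls, limma gave 1 with no filter on low genes, 122 with 1 FPKM required in every library, 112 after quantile normalization, 118 after median-ratio scaling and 171 without the trends with GC content and length. With each library left out it gave between 2 and 71. The replicate block gave 42 calls and changed no call of an OXPHOS gene, and correlations of deviations between libraries of the same number were 0.07, 0.10 and 0.02, so the numbers were not taken to pair the libraries. Era replicate 3 correlated more with Era+VK replicate 1 (0.04) than with replicate 3. Sensitivity is limited by 3 libraries a group and unknown depth.

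The median of the mitochondrially encoded genes kept its direction under each alternative, at -0.029 after quantile normalization and between -0.21 and -0.11 under the others. Quantile normalization can itself take out a shift that these abundant genes share. That of the nuclear genes was -0.040 without both libraries with globin transcripts and between -0.00 (without Era+VK replicate 2) and 0.10 under the others. Named genes changed sign after quantile normalization (MT-CO1 0.025, MT-ND5 0.028 and MT-ND6 0.073), median-ratio scaling (UQCRH -0.025, SDHD -0.017 and ATP5F1B -0.017) and removal of the length and GC trend, with and without the replicate block (UQCRH -0.011, ATP5F1B -0.0053 and SDHD -0.0047). Without both libraries with globin transcripts they were UQCRH -0.18, COX6B1 -0.12, COX8A -0.11, ATP5MF -0.10, SDHD -0.086, COX4I1 -0.065, ATP5F1B -0.063, ATP5MC3 -0.048, COX7A2 -0.040, COX7B -0.039 and SDHC -0.024. With 1 library left out, genes that crossed 0 were ATP5F1B (-0.030 to 0.061), ATP5MC1 (-0.23 to 0.0020), ATP5MF (-0.0041 to 0.24), COX4I1 (-0.046 to 0.11), COX5A (-0.054 to 0.055), COX7B (-0.018 to 0.13), COX8A (-0.039 to 0.18), NDUFA11 (-0.17 to 0.019), NDUFA4 (-0.13 to 0.021), NDUFS5 (-0.039 to 0.21), SDHD (-0.074 to 0.070) and UQCRH (-0.12 to 0.11). The cause was not tested.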

Other observations

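Of the 37 genes tested of the mitochondrial genome (13 protein genes and 24 rRNA and tRNA genes), limma called 1 at an adjusted p under 0.05 (2.70%, against 0.618% of all genes tested and 0.484% in the lower direction). This was MT-TV, the valine tRNA gene between both ribosomal RNA genes (chrM:1602-1670), named after its values were seen. It was at 23.7, 22.2 and 24.03 FPKM in Era and at 18.1, 19.2 and 17.2 FPKM in Era+VK, so the groups do not overlap (log2 fold change -0.35, SE 0.05, adjusted p = 0.0450 in limma). Over the 16 alternatives its log2 fold change ran from -0.38 to -0.31 and its adjusted p in limma from 0.0271 to 0.175, under 0.05 in 6 of them. It did not pass without Era replicate 1, 2 or 3 (adjusted p = 0.170, 0.121 and 0.175 in limma), without Era+VK replicate 1 or 3 (0.110 and 0.109), without both libraries with globin transcripts (0.116), with no filter (0.150), with the replicate block (0.117) or after removal of the length and GC trend, without or with the block (0.0614 and 0.119). FPKM of a gene this short depend on how fragments longer than the gene were counted, which is not given in the sources used here.

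The tRNA genes spanned a wide range of levels. Those on the light strand for alanine, asparagine, cysteine, tyrosine and serine (MT-TA, MT-TN, MT-TC, MT-TY and MT-TS1) had means in Era between 286 and 438 FPKM. On the heavy strand, MT-TL1 had a mean of 349.9 FPKM in Era with log2 fold change -0.32 (SE 0.15), and MT-TW had the lowest mean of all, 6.55 FPKM. The lowest log2 fold change of the light-strand genes was -0.20, for MT-TN (adjusted p = 0.251 in limma).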
